A study of Mus musculus with 6 samples.

Results

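The genes that glia use to clear potassium and water and to couple to one another were followed across the cell types of the mouse cerebellum: the potassium channel genes *Kcnj10* and *Kcnj16*, the water channel gene *Aqp4*, the connexin genes *Gja1* and *Gjb6*, the sodium pump subunit gene *Atp1b2* and the bicarbonate carrier gene *Slc4a4*. The genes were chosen by name, with earlier results of these data known, and all 7 of the 7 were found among the 32286 genes of the count tables. Single nuclei of whole cerebella had been sequenced from 3 SCA1 and 3 wild-type (WT) mice at 12 weeks of age, with 1 library per mouse. The SCA1 mice carried the *Pcp2-ATXN1[82Q]* transgene, in which the promoter of *Pcp2*, a gene of Purkinje cells (PCs), drives human mutant *ATXN1*. The WT mice were littermates without the transgene, labelled C57Bl6, and no further allele or agent was given for either group. UMI counts (counts of distinct captured RNA molecules) were summed per mouse over all nuclei that the authors' automated classifier, SingleR, had given the same cell type label.

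Neurons release potassium when they fire, and glia take it up again. Kir4.1, the channel made from *Kcnj10*, passes potassium into astrocytes and oligodendrocytes, and it can join with Kir5.1, made from *Kcnj16*, into a channel with other gating. The sodium pump takes up potassium at the cost of ATP, and Atp1b2 is its beta subunit in glia. Aquaporin 4 (*Aqp4*) lets water follow at the endfeet on blood vessels. Connexin 43 (*Gja1*) and connexin 30 (*Gjb6*) form the gap junctions through which astrocytes share ions, and the cotransporter NBCe1 (*Slc4a4*) carries sodium and bicarbonate across the membrane and so moves acid and base. In the cerebellum, Bergmann glia (BG) are the astrocytes whose fibres run along the PC dendrites, and velate astrocytes (VA) wrap the granule neurons.

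The tables held 45473 nuclei. Libraries held between 18916647 and 98366627 UMIs. BG, VA, oligodendrocytes (OL) and granule neurons each had at least 63 nuclei in every mouse. Levels are given as CPM, the gene's UMIs per 1000000 UMIs of that cell type in that mouse. Of 24 labels, 11 had at least 20 nuclei in each mouse. The labels were compared with marker genes, and *Pdgfra* and *Cspg4*, genes of oligodendrocyte precursors, went against them. *Gdf10*, a BG gene, stood at 140 CPM in BG and at 15.3 CPM in VA, pooled over mice. *Slc6a11*, a transporter gene on the marker list for astrocytes, stood at 285 CPM in VA and 72.6 CPM in BG. *Slc1a2* and *Gfap* of that list were also higher in VA. *Slc1a3*, on the BG list as well, stood at 3440 CPM in BG and 749 CPM in VA. The astrocyte list summed to 4475 to 5373 CPM in SCA1 BG and 5326 to 5481 CPM in WT BG. In VA it summed to 3008 to 3437 CPM and 3249 to 3564 CPM, so the whole list did not mark VA. The myelin gene *Mog* stood at 689 CPM in OL. *Pdgfra* and *Cspg4* stood at 64.1 and 30.4 CPM in OL, above the 13.8 and 9.19 CPM of the small label Polydendrocyte.Tnr.Tnr. That label had at most 4 nuclei in a mouse. The OL label thus also held these precursor markers. The whole precursor list, with *Vcan* and *Lhfpl3* added, summed to 446 to 1214 CPM in SCA1 OL and 552 to 2280 CPM in WT OL. In VA it summed to 476 to 924 CPM and 469 to 1024.5 CPM, so the whole list did not set OL apart from VA. *Gja1* is part of the classifier's names for both astrocyte labels, and every nucleus had been labelled from its expression, so levels between labels are descriptions and carry no test. The mouse 1 libraries of both genotypes stood apart: no nucleus in them had fewer than 3890 UMIs, and each of the 7 RNAs except *Slc4a4* was higher in their granule neurons than in those of the other 4 libraries. Per the methods, cells under 1000 UMIs were modelled as debris, or under 3000 UMIs for the 2 samples of the first sequencing run. Which mice these were is not stated. Only the mouse 1 libraries held no nucleus under 3000 UMIs, with minima of 3890 and 3932, and the other 4 had minima of 1000 to 1739. The part of this limit in the difference was not tested. WT mouse 2 was the shallowest library, with a median of 2246.5 UMIs per nucleus.

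*Kcnj10* was shared by astrocytes and OL. Its level was 116 ± 21.3 CPM in OL, 88.9 ± 30.3 CPM in BG and 85.1 ± 20.2 CPM in VA (mean ± SD, n = 6 mice), against 18.3 ± 14.4 CPM in granule neurons. OL stood above BG in 6 of 6 mice with means 1.30-fold apart, whereas BG stood above VA in only 3 of 6 mice, so BG and VA did not differ beyond the spread. PCs had 7.48 ± 6.05 CPM. After each nucleus was thinned to 3000 UMIs, 28.1% ± 6.44 of OL nuclei, 23.4% ± 7.20 of BG nuclei and 18.6% ± 2.85 of VA nuclei had a *Kcnj10* UMI, against 5.30% ± 4.43 of granule neurons. Without thinning the shares were 47.1%, 44.4%, 33.8% and 10.3%. Reads of glial RNA in granule neuron nuclei can come from free RNA in the suspension, so the granule neuron values are printed beside the glial ones. The share of free RNA in them was not tested.

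*Kcnj16*, the partner channel gene, was highest in BG. It stood at 49.1 ± 10.2 CPM in BG and 18.6 ± 3.27 CPM in VA (n = 6), and BG were above VA in each of the 6 mice, by 1.40 ± 0.31 on the log2 scale or 2.63-fold. OL had 6.63 ± 4.07 CPM and granule neurons 3.90 ± 3.08 CPM, so that OL, which had the most *Kcnj10*, had *Kcnj16* near the granule neuron level. *Kcnj10* UMIs outnumbered *Kcnj16* UMIs by 1.21 to 2.56 times in BG and by 3.20 to 7 times in VA.

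The windows around the annotated starts of these channel genes are shown because these are the genes that had an unadjusted p under 0.05 in the comparison of SCA1 and WT mice below. Sequences are from RefSeq (build GRCm38.p6), on the plus strand, from 250 bases before a start to 50 after it, with matches to CCAAT, on either strand, or to the TATA box letters TATAAA in capitals. *Kcnj10* has 1 such window, chr1:172340960-172341259, with 63.7% G and C against a median of 52.7% over the 32851 windows of the table. *Kcnj16* has 4, and the first (chr11:110967783-110968082, 44.3% G and C) and the one that holds the TATA box letters (chr11:111019335-111019634, 53.0%) are printed.

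Kcnj10: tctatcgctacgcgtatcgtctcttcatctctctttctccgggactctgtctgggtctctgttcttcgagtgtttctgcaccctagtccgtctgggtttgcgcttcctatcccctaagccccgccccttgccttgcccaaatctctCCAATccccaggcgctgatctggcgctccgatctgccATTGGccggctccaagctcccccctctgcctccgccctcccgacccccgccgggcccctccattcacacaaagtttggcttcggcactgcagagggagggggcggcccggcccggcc

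Kcnj16 first start: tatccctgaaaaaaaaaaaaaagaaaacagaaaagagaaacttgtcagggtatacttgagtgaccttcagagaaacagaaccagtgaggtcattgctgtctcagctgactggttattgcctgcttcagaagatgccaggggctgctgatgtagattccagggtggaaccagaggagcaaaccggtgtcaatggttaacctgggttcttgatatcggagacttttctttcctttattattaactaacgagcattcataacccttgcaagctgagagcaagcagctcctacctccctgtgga

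Kcnj16 start with TATA box: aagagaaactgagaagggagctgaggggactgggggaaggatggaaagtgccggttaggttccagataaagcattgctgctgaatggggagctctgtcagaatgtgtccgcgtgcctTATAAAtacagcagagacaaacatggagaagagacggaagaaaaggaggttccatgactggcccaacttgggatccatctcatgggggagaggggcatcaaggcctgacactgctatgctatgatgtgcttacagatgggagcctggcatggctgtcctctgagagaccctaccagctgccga

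The *Kcnj10* window held CCAAT at 2 positions, 1 on each strand, and 37.4% of all windows hold it on either strand. TATAAA was found in 13.6% of all windows. CACGTG and GACCACCCA were searched too and matched no window of the 5 genes of the set that the table holds. No motif overlapped another, and a match is a description of letters only.

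*Aqp4* had the steepest difference between the astrocytes. Its level was 1151 ± 160 CPM in VA and 222 ± 60.3 CPM in BG, 5.31-fold lower in BG within mice, with VA above BG in 6 of 6 mice. After thinning, 88.0% ± 2.52 of VA nuclei but 41.3% ± 9.64 of BG nuclei had an *Aqp4* UMI, against 15.0% ± 8.31 of granule neurons (94.6%, 69.7% and 26.2% unthinned). OL, at 62.0 ± 40.8 CPM, and granule neurons, at 57.9 ± 31.0 CPM, did not differ beyond their spread, and OL were the higher of the 2 in 4 of 6 mice. The small choroid plexus label (83 nuclei, 5 to 27 per mouse) held *Aqp4* at 331 CPM pooled over mice (95% counting interval 295 to 370), *Kcnj10* at 108 and *Kcnj16* at 45.4 CPM, with *Gjb6* at 9.51 CPM. That label also held the ciliary genes *Foxj1* and *Cfap54*, which mark ependymal cells, at 118 and 1059 CPM beside *Ttr* at 6685 CPM.

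Both connexins were higher in VA than in BG. *Gja1* reached 601 ± 156 CPM in VA and 204 ± 54.1 CPM in BG (2.96-fold, 6 of 6 mice), and *Gjb6* reached 147 ± 4.72 CPM in VA and 84.3 ± 12.3 CPM in BG (1.76-fold, 6 of 6 mice). *Gjb6* in VA was the most even value of the set, from 142 to 154 CPM over the 6 mice. Neither was a gene of astrocytes alone. The label Endothelial_Tip.Dcn.Nnat (242 nuclei, *Dcn* at 413 CPM pooled) had more *Gjb6* than any other label with at least 20 nuclei in each mouse, 218 ± 38.2 CPM, above VA in 6 of 6 mice. It had 246 ± 55.1 CPM of *Gja1*, above BG in 5 of 6 mice, whereas *Aqp4* (45.4 ± 44.0 CPM) and *Kcnj10* (14.9 ± 17.8 CPM) were no higher there than in granule neurons (57.9 and 18.3 CPM). In OL, *Gja1* (36.3 ± 25.9 CPM) and *Gjb6* (12.7 ± 9.01 CPM) were close to the granule neuron values of 32.3 ± 20.1 and 9.01 ± 6.89 CPM.

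*Atp1b2* followed the same order among the astrocytes, with 465 ± 131 CPM in VA and 282 ± 131 CPM in BG (1.75-fold within mice, VA higher in 6 of 6). Granule neurons came next at 136 ± 72.5 CPM. In OL it ranged from 33.0 to 182 CPM, and the mouse 1 libraries, at 173 CPM in SCA1 and 182 CPM in WT, were above the other 4, which reached at most 71.0 CPM.

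*Slc4a4* was the most abundant RNA of the set in both astrocytes. BG had 4119 ± 1091 CPM and VA 3670 ± 715 CPM, and BG were above VA in 6 of 6 mice, by only 0.15 ± 0.11 on the log2 scale. Granule neurons had 864 ± 153 CPM, more than the 205 ± 99.7 CPM of OL and the 59.2 ± 36.3 CPM of PCs. In granule neurons there were 20.4 ± 13.2 *Slc4a4* UMIs per *Aqp4* UMI, beside 20.6 ± 9.97 in BG and 3.23 ± 0.72 in VA. In the other 8 labels with at least 20 nuclei in each mouse, the lowest mean ratio was 3.02 ± 1.51 in the interneuron label Pvalb-Cadm1. It was 4.09 ± 2.14 in OL and 13.7 ± 8.78 in Slc17a6.Nrgn, and highest in Endothelial_Tip.Dcn.Nnat at 31.5 ± 32.4. There the mice ran from 3.8 to 85, and the 85 rested on 1 *Aqp4* UMI in WT mouse 2. The part of free RNA in the granule neuron level of *Slc4a4* was not tested. Between libraries *Slc4a4* ran opposite to *Atp1b2* in BG: it was lowest in the mouse 1 libraries (3327 and 2864 CPM) and highest in the mouse 3 libraries (5529 and 5314 CPM), whereas *Atp1b2* was highest in mouse 1 (445 and 435 CPM).

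**Figure D1:**
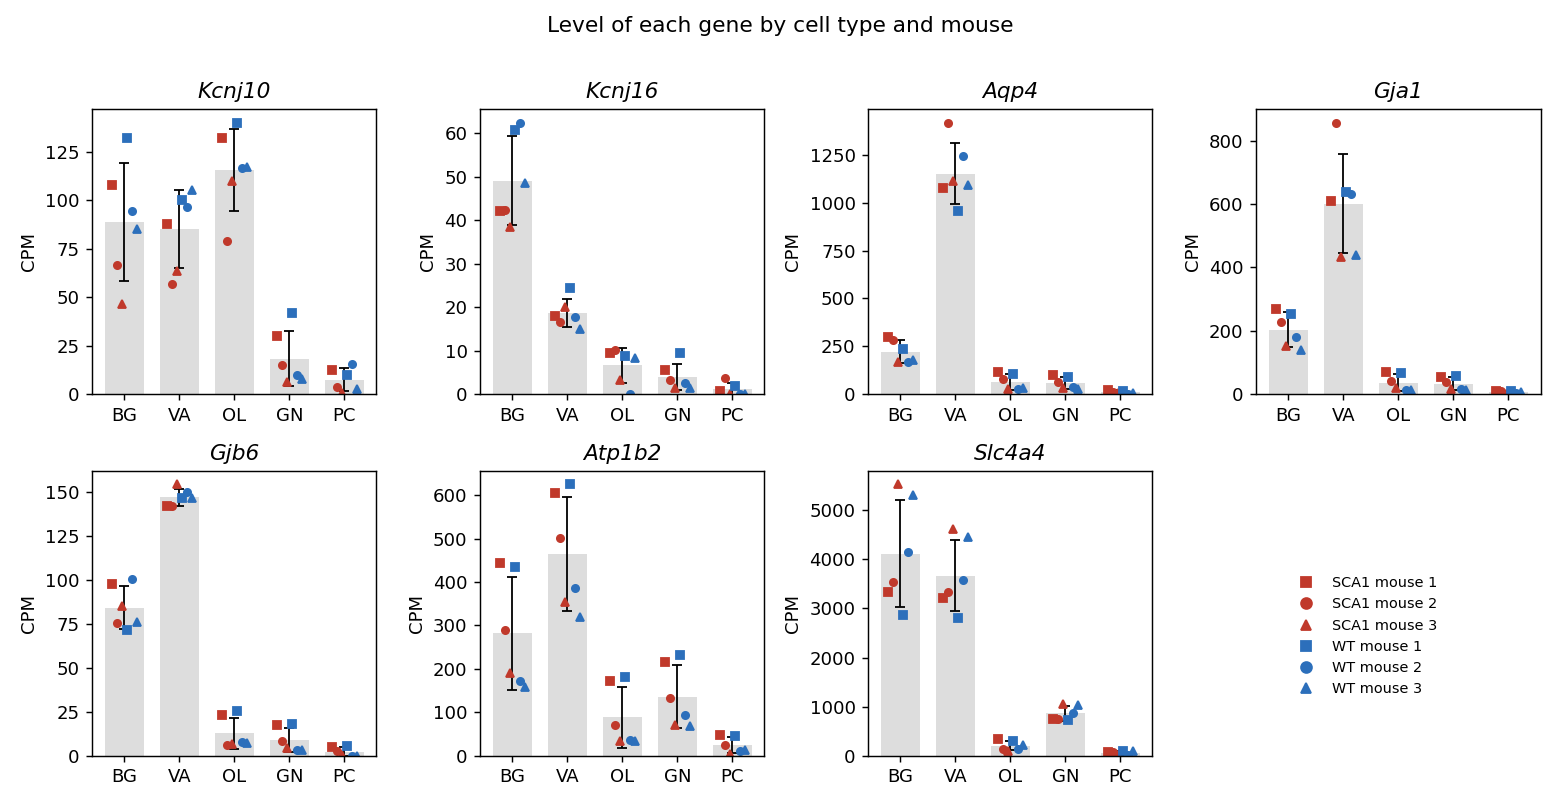
CPM (UMIs per 1000000 UMIs of the cell type) of the 7 genes in Bergmann glia (BG), velate astrocytes (VA), oligodendrocytes (OL), granule neurons (GN) and Purkinje cells (PC), with each axis on its own linear scale. Bars are means of 6 mice, error bars are SDs and points are mice; *Kcnj10* is higher in OL (116 CPM) than in BG (88.9 CPM), and *Aqp4* is highest in VA (1151 CPM).

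Set per kilobase of gene, from the first to the last annotated base, since nuclear RNA holds introns, the order of the genes changed. In BG, *Atp1b2* had 45.4 CPM per kilobase, *Slc4a4* 11.7, *Aqp4* 10.3, *Gjb6* 8.17, *Gja1* 8.09, *Kcnj10* 2.70 and *Kcnj16* 0.82. In VA, *Atp1b2* (74.9) and *Aqp4* (53.6) were the highest on this scale and *Slc4a4* (10.4) fell below *Gja1* (23.9) and *Gjb6* (14.3). *Slc4a4* spans 353 kilobases (chr5:88886818-89239653 in GRCm38, plus strand) and *Atp1b2* 6.21 kilobases (chr11:69599736-69605942, minus strand). How far capture follows gene length was not tested.

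**Figure D2:**
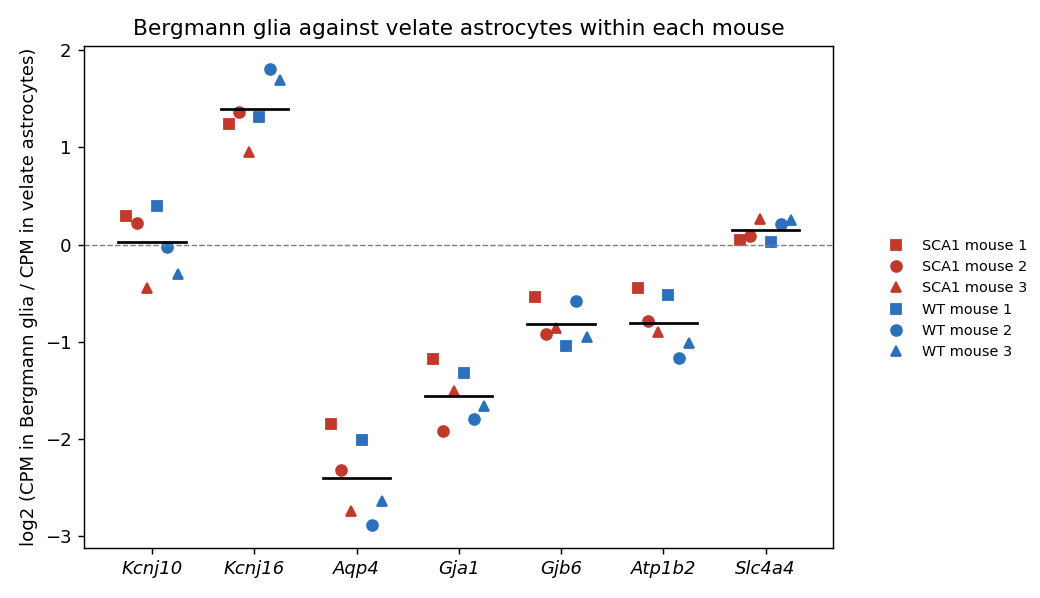
Log2 ratio of the CPM in Bergmann glia to that in velate astrocytes within each mouse, for the 7 genes. Points are mice and lines are means of 6 mice; *Kcnj16* (mean 1.40) and *Slc4a4* (0.15) are above 0 in each mouse, *Aqp4* (-2.41), *Gja1* (-1.56), *Gjb6* (-0.81) and *Atp1b2* (-0.81) are below 0 in each mouse, and *Kcnj10* (0.023) is on both sides.

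Genes whose levels ran most alike were found over 80 sums of mouse and label from 16 labels, by Pearson's r of log2(CPM + 1) among 15536 other genes. For *Kcnj10* these were *Sox8* (r = 0.84), *Scd2* (0.83) and *Hepacam* (0.83). *Sox8* is a transcription factor gene of oligodendrocytes and astrocytes. For *Kcnj16* they were *Atp13a4*, *Cyp2j6* and *Lrig1* (0.79 to 0.80). *Aqp4* ran with *Slc1a2* (0.91), the glutamate transporter gene of astrocytes, *Tprkb* (0.90) and *Dao* (0.89). Among the 3 closest to *Gja1* were *Ndrg2* (0.89) and *Aldh1a1* (0.89), and among the 3 closest to *Gjb6* were *Plpp3* (0.90) and *Fam20a* (0.89). *Atp1b2* ran with *Ndrg2* (0.91), *Gfap* (0.89) and *Mt2* (0.86), and *Slc4a4* with *Lrig1* (0.88), *Fgfr3* (0.87) and *Appl2* (0.87). Within the set, *Gja1* and *Gjb6* were the most alike (0.86) and *Kcnj10* and *Gjb6* the least (0.52). These sums share libraries and can share free RNA, and the values are descriptions over cell types.

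SCA1 and WT mice were compared next within each glial type, to ask whether the potassium and water genes of glia differ when the promoter of a PC gene drives the mutant gene. *Kcnj10* had lower means in SCA1 mice in BG, VA and OL, and *Kcnj16* in BG and VA. Both means were also lower in granule neurons, at 17.0 against 19.6 CPM for *Kcnj10* and 3.37 against 4.44 CPM for *Kcnj16*. No gene of the 7 passed the test in any glial type. The sums per mouse were tested with edgeR's quasi-likelihood test in a fit of genotype and batch, and p-values were adjusted over all genes tested by the Benjamini-Hochberg method. At an adjusted p of at most 0.05 it called none of the set: 0 of 7 in BG (0.0% of all genes tested were called), 0 of 7 for VA (0.0%) and 0 of 7 for OL (0.00917%, 1 gene, *Gm12160*, named after its value was seen). DESeq2 called 0 of 7 in each as well, beside 2 of 11093 genes tested in BG, 0 of 10548 in VA and 1 of 10900 in OL. At an unadjusted p under 0.05, 2 of 7 passed in BG (1.71% of all 11093 genes tested did), 1 of 7 in VA (1.01% of 10548) and 0 of 7 in OL (0.807% of 10900). The 7 genes were chosen with earlier results of these data known, so these shares are descriptions. The median log2 fold change of the 7 in BG was 0.043, beside 0.0046 over all genes tested. It was 0.033 for VA, beside -0.0059, and 0.15 for OL, beside -0.0087.

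In BG, *Kcnj10* stood at 108, 66.5 and 46.6 CPM in SCA1 mice 1 to 3 and at 132, 94.6 and 85.3 CPM in WT mice 1 to 3. SCA1 mice 2 and 3 were below all WT mice, whereas SCA1 mouse 1 lay among them. The log2 fold change was -0.58 (SE 0.23, 95% interval -1.09 to -0.08, adjusted p = 1.00 by edgeR). It was -0.30 within batch 1 and -0.69 within batch 2, as differences of mean log2 CPM. Batch 1 held only mouse 1 of each genotype, so its values compare 1 mouse with 1 mouse.

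In VA, *Kcnj10* was 87.8, 56.8 and 63.7 CPM in SCA1 and 100.3, 96.6 and 105 CPM in WT, and the groups did not overlap. Of all genes tested in VA, 2.20% were lower in SCA1 without overlap. In nuclei thinned to 3000 UMIs, *Kcnj10* was 93.6, 53.2 and 70.8 CPM in SCA1 and 86.7, 96.2 and 92.9 CPM in WT, with overlap. Thinning left out the shallower nuclei, 23 of SCA1 and 67 of WT in VA, and WT mouse 2 went from 117 to 52 nuclei. The log2 fold change was -0.56 (SE 0.24, 95% interval -1.09 to -0.03, adjusted p = 1.00 by edgeR). It was -0.19 within batch 1 and -0.74 within batch 2, as differences of mean log2 CPM. In OL, *Kcnj10* was 132, 78.8 and 110 CPM in SCA1 and 140, 117 and 117 CPM in WT, with overlap and a log2 fold change of -0.26 (95% interval -0.79 to 0.28). It ran from -0.40 without SCA1 mouse 3 to -0.089 without SCA1 mouse 2.

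*Kcnj16* in BG was 42.1, 42.4 and 38.5 CPM in SCA1 and 60.8, 62.4 and 48.6 CPM in WT. Each SCA1 mouse was below each WT mouse, as for 1.98% of all genes tested in BG. The log2 fold change was -0.53 (SE 0.22, 95% interval -1.003 to -0.05, adjusted p = 1.00 by edgeR), with -0.53 within batch 1 and -0.45 within batch 2. In VA, the *Kcnj16* log2 fold change was -0.16 (95% interval -0.92 to 0.59), and the groups overlapped. Only 7 and 8 *Kcnj16* UMIs were counted in VA of WT mice 2 and 3.

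No other gene of the 7 had an unadjusted p under 0.05 in a glial type. In BG, *Aqp4* was 299, 284 and 167 CPM in SCA1 and 237, 168 and 175 CPM in WT, a log2 fold change of 0.31 (95% interval -0.22 to 0.83). SCA1 mice 1 and 2 were above all WT mice and SCA1 mouse 3 was below them. *Atp1b2* had a log2 fold change of 0.30 (-0.22 to 0.82), *Gja1* 0.13 (-0.37 to 0.64), *Gjb6* 0.04 (-0.49 to 0.57) and *Slc4a4* -0.016 (-0.80 to 0.77), each with overlapping groups. With 1 mouse left out, the BG values ran from 0.12 to 0.46 for *Aqp4*, from 0.11 to 0.45 for *Atp1b2* and from 0.0011 to 0.23 for *Gja1*. In VA, the values of these 5 genes (*Aqp4*, *Atp1b2*, *Gja1*, *Gjb6* and *Slc4a4*) lay between -0.040 for *Gjb6* and 0.14 for *Atp1b2*. In OL, where all but *Kcnj10* were near the granule neuron level or below it, they ran from -0.47 for *Slc4a4* to 0.53 for *Gja1*. Leaving out 1 mouse moved these values in OL: *Slc4a4* was -0.80 without WT mouse 1 and -0.14 without WT mouse 3, *Gja1* 1.08 without SCA1 mouse 1 and 0.16 without SCA1 mouse 2, and *Aqp4* 0.77 without SCA1 mouse 1 and 0.0062 without SCA1 mouse 2. Without either mouse 1, batch 1 holds no comparison of genotypes, so those values come from batch 2 alone.

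**Figure D3:**
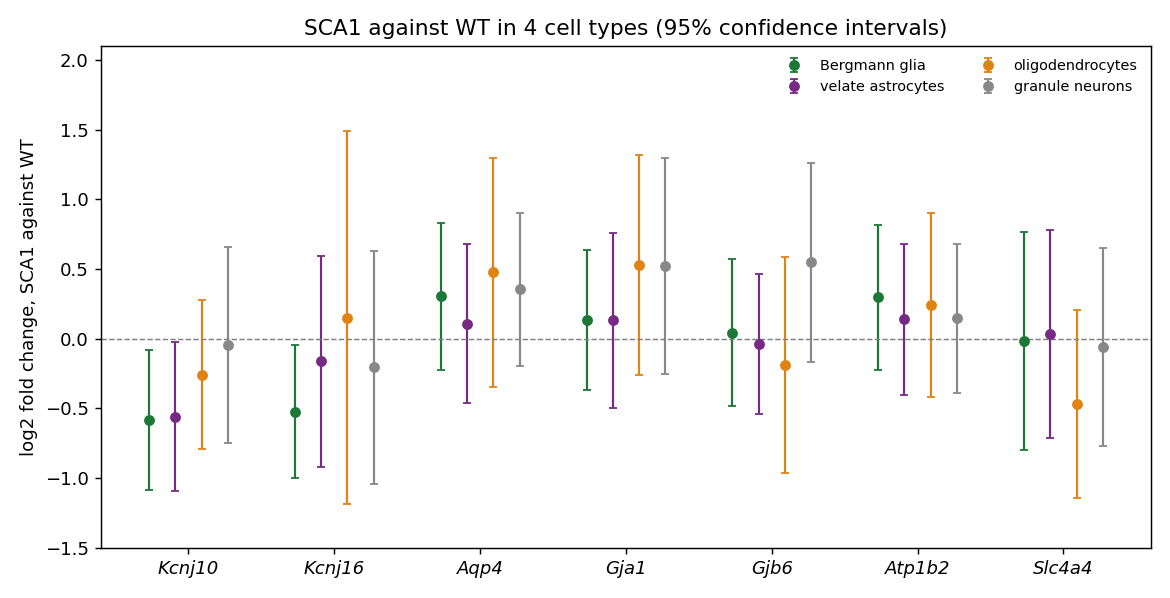
Log2 fold change of SCA1 against WT mice (3 against 3) for the 7 genes in Bergmann glia, velate astrocytes, oligodendrocytes and granule neurons, with 95% confidence intervals from the edgeR fit. The intervals of *Kcnj10* in Bergmann glia (-1.09 to -0.08) and velate astrocytes (-1.09 to -0.03) and of *Kcnj16* in Bergmann glia (-1.003 to -0.05) lie below 0 before adjustment over all genes, and the other 25 intervals cross 0.

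The same genes were compared in granule neurons of the same libraries. *Kcnj10* in them was 30.0, 14.9 and 6.0 CPM in SCA1 mice and 41.6, 9.6 and 7.6 CPM in WT mice. The mouse 1 libraries were the highest of each genotype, and the log2 fold change was -0.046 (95% interval -0.75 to 0.66). As differences of mean log2 CPM, *Kcnj10* in granule neurons was -0.47 within batch 1 and 0.15 within batch 2. *Kcnj16* in granule neurons was -0.77 within batch 1 and 0.15 within batch 2. None of the 7 passed there (0 of 7 by edgeR, 0.00566% of all genes tested, and 0 of 7 at an unadjusted p under 0.05, beside 1.77% of all genes tested). The difference in the *Kcnj10* effect between BG and granule neurons was -0.42 on the log2 scale (95% interval -1.49 to 0.65, edgeR adjusted p = 1.00), and that between VA and granule neurons was -0.36 (-1.79 to 1.08). With 1 mouse left out, the first ran from -1.16 without WT mouse 1 to -0.09 without WT mouse 3. Between BG and VA the effects differed by -0.057 for *Kcnj10* (-0.58 to 0.47) and -0.30 for *Kcnj16* (-0.93 to 0.33). The latter ran from -0.63 to -0.21 with 1 mouse left out. For *Kcnj16*, BG minus granule neurons was -0.15 (-1.62 to 1.32). No gene of the 7 was called in any of these differences or in that between OL and granule neurons, beside 0.0% of all genes tested in each. At 3 against 3 the intervals are wide.

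The study's own kind of test, limma-trend with single nuclei as the units, gave another count in BG. It called 3 of 7 genes there (1.99% of 18673 genes tested were called), 0 of 7 in VA (0.856%) and 0 of 7 in OL (0.921%). In BG, *Kcnj10* was lower by it (-0.15 on the scale of log2 normalized values per nucleus, adjusted p = 0.0405), and *Aqp4* (0.24, adjusted p = 0.00165) and *Atp1b2* (0.20, adjusted p = 0.00517) were higher, by limma. Nuclei of 1 mouse share their library, so this p-value measures the spread between nuclei and not between mice.

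The ratio of *Kcnj10* to *Aqp4* UMIs needs no scaling between libraries. The pair was chosen with earlier results of these data for both genes known, so the ratio is a description and carries no test. In BG there were 0.361, 0.234 and 0.279 *Kcnj10* UMIs per *Aqp4* UMI in SCA1 mice 1 to 3, and 0.558, 0.562 and 0.486 in WT mice 1 to 3. The groups did not overlap, and the ratio was 1.86-fold lower in SCA1 (log2 difference -0.90). It was -0.63 within batch 1 and -1.03 within batch 2. How often the ratios of other gene pairs separate the groups without overlap was not tested, for this ratio or those below. In VA the ratio was 0.081, 0.040 and 0.057 in SCA1 and 0.105, 0.078 and 0.096 in WT, with overlap (log2 difference -0.69). In granule neurons the log2 difference was -0.41, also with overlap.

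*Kcnj16* relative to *Aqp4*, a ratio chosen after the values were seen, was 0.141, 0.149 and 0.231 in SCA1 BG and 0.256, 0.371 and 0.277 in WT BG, without overlap and 1.76-fold lower in SCA1. The groups overlapped in VA, where the log2 difference was -0.18 (-0.62 within batch 1 and 0.040 within batch 2), and in granule neurons, where it was -0.51. The ratio of *Kcnj10* to *Kcnj16* in BG, chosen in the same way, differed by -0.084 on the log2 scale with overlapping groups.

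**Figure D4:**
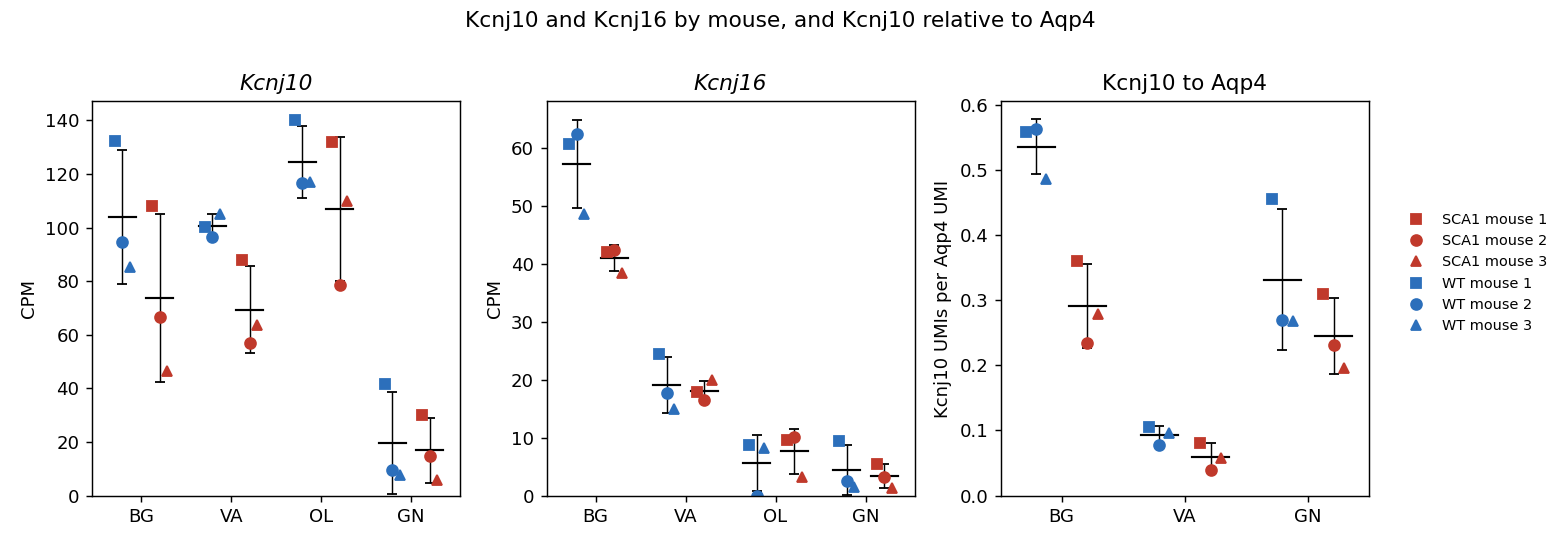
*Kcnj10* and *Kcnj16* in CPM, and *Kcnj10* UMIs per *Aqp4* UMI, by mouse in Bergmann glia (BG), velate astrocytes (VA), oligodendrocytes (OL) and granule neurons (GN), with means (lines) and SDs (error bars) of 3 mice. In Bergmann glia the SCA1 mice sit at 38.5 to 42.4 CPM of *Kcnj16* against 48.6 to 62.4 in WT, and at 0.234 to 0.361 *Kcnj10* UMIs per *Aqp4* UMI against 0.486 to 0.562.

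The share of BG nuclei with a *Kcnj16* UMI overlapped between genotypes before thinning and not after it. Unthinned, it was 29.9%, 20.4% and 30.7% in SCA1 mice 1 to 3 and 41.8%, 18.5% and 32.1% in WT mice 1 to 3. After thinning to 3000 UMIs, 11.01%, 8.47% and 10.96% of BG nuclei had a *Kcnj16* UMI in SCA1 mice 1 to 3, against 16.2%, 17.5% and 16.9% in WT mice 1 to 3, without overlap (two-sided exact permutation p = 0.1, the smallest that 3 against 3 allows, and 0.4 adjusted over 6 shares). For *Kcnj10* in BG the shares were 26.1%, 18.5% and 12.3% against 33.2%, 26.3% and 24.1%, with overlap (exact permutation p = 0.2). Thinning left out 16 SCA1 and 56 WT nuclei of BG, and the unthinned means were 27.0% and 30.8% for *Kcnj16* and 40.8% and 48.0% for *Kcnj10*. WT mouse 2 went from 135 to 80 BG nuclei, and from the lowest *Kcnj16* share unthinned to the highest after thinning. The random draw of the thinning was made once. In VA the thinned *Kcnj10* shares were 22.5%, 14.1% and 16.8% in SCA1 and 19.6%, 19.2% and 19.7% in WT (exact permutation p = 0.6), so that SCA1 mouse 1 was above each WT mouse. In granule neurons, 1.21% had a *Kcnj16* UMI after thinning.

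Among the marker lists, that of fibroblast-like cells (*Dcn*, *Col1a1*, *Col1a2*) differed without overlap in BG, with a summed level of 44.6 to 65.8 CPM in SCA1 and 28.4 to 40.0 CPM in WT. None of its 3 genes was at 0, and its part in the results was not tested. The other 12 lists overlapped between genotypes in BG, and all 13 lists did so in VA and OL. The PC list summed to 109 to 647 CPM in SCA1 BG and 245 to 1270 CPM in WT BG, and the same list summed to 157 to 774 CPM and 317 to 1418 CPM in granule neurons.

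Further genes of the same functions were followed as a list of 43. Of these, 32 could be tested in BG, 32 in VA and 31 in OL. By edgeR 0 were called in each, beside 0.0%, 0.0% and 0.00917% of all genes tested. At an unadjusted p under 0.05 the list had 0 in each, beside 1.71%, 1.01% and 0.807% of all genes tested. DESeq2 called 0 of the list in each, beside 2, 0 and 1 of all genes tested in BG, VA and OL. The test of nuclei by limma-trend called 4 in BG (1.99% of all genes it tested), 0 in VA (0.856%) and 1 in OL (0.921%). Those 4 were the potassium channel genes *Kcnj3* (0.29), *Kcnn2* (0.24) and *Kcnma1* (-0.16) and the dystrophin gene *Dmd* (0.20), and *Kcnma1* (-0.16) was also the one in OL, all named after their values were seen. The median log2 fold change of the list genes tested in BG was -0.034, that of VA was -0.045 and that of OL -0.026. In BG the smallest edgeR p of the list belonged to *Dag1*, the dystroglycan gene, whose protein anchors aquaporin 4 at the endfoot (-0.42, SE 0.22, adjusted p = 1.00 by edgeR). *Slc4a10* (0.74) and *Slc4a7* (0.44), both sodium and bicarbonate carrier genes, came next. *Slc4a7* was the 1 gene of the list without overlap in BG (2.96% of all genes tested were higher in SCA1 without overlap), at 22.8 ± 1.86 CPM in SCA1 and 16.4 ± 1.84 CPM in WT (n = 3 each). In VA, *Hepacam*, a gene of cell adhesion at the endfoot, was the 1 gene of the list without overlap, at 347 ± 10.6 CPM in SCA1 and 333 ± 2.39 CPM in WT, with a log2 fold change of 0.035, where 2.68% of all genes tested were higher without overlap. Both were named after their values were seen. The smallest p in VA belonged to *Gjc3*, a connexin gene (0.43), *Car2*, a carbonic anhydrase gene (0.36), and *Mlc1*, a gene of volume control at the endfoot (-0.32). In OL it belonged to the potassium channel genes *Kcnn2* (-0.78) and *Kcnma1* (-0.48) and to *Slc4a10* (0.25). The 7 sodium pump genes had a median of -0.077 in BG and -0.062 in VA, and the 6 of them tested in OL had 0.015.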

How the data were processed

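Nuclei of 6 mouse cerebella (3 SCA1, 3 WT, 1 library each) were analysed from the deposited tables of UMI counts per gene and nucleus, 1 table per mouse. Per the labels and methods, the authors aligned reads with Cell Ranger (versions 4.0.0, 5.0.1 and 6.0.1 are named), removed debris with DIEM, clustered with Seurat 4.0.4 and labelled nuclei with SingleR; the tables also hold each nucleus' cluster and label. Doublets were not called here. Libraries shared 7 to 44 barcodes per pair.

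UMI counts were summed per mouse and label. Each type was fitted with edgeR 4.0.16 (glmQLFit and glmQLFTest, TMM, filterByExpr with a minimum count of 10), with batch and genotype as terms. Batch was inferred from the library numbers, mouse 1 of each genotype being batch 1. On simulated data with 200 genes changed by 1.5 on the log2 scale, 84.0% of those tested were recovered in Bergmann glia, 85.3% in velate astrocytes, 85.1% in oligodendrocytes and 91.2% in granule neurons; for the differences between 2 types it was 32.2% to 47.5%. The simulated counts had the same dispersion for every gene and no batch or mouse effect. These shares thus do not give the recovery in the real libraries. Recovery at smaller log2 fold changes, such as the -0.58 of *Kcnj10* in Bergmann glia, was not tested. Differences of effect were fitted with mouse as a block. Exact permutation tests used scipy 1.17.1. DESeq2 1.42.0 and limma 3.58.1 with scran 1.30.0 were alternatives. Intervals on pooled counts are exact Poisson intervals and cover counting error only. Positions come from GENCODE vM21, promoters from the RefSeq table, which held 5 of the 7 genes.

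All 7 members were named in each comparison; of the list, the 3 genes with the smallest p per type. The members and lists were chosen with earlier results of these data known. Samples of a group are separate mice. Of the genes most alike in level, 1 is not reported here.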

Additional observations from a re-analysis of the deposited data

How the results depend on the processing

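Of the alternatives, the test of single nuclei changed calls: limma-trend called 3 of the 7 genes in Bergmann glia (*Kcnj10* -0.15, *Aqp4* 0.24, *Atp1b2* 0.20), where edgeR and all other alternatives called 0. No member was called in velate astrocytes or oligodendrocytes under the alternatives, nor with any mouse left out. For the differences of effects, only DESeq2, the cluster's label and mice left out were run, and no member was called. *Kcnj10* and *Kcnj16* in Bergmann glia kept their sign throughout, between -0.75 and -0.45 and between -0.59 and -0.47 with 1 mouse left out, as did the *Kcnj10* to *Aqp4* ratio (-1.06 to -0.75; velate astrocytes -0.94 to -0.43).

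None of the values that changed sign was called, and the cause was not tested. With the cluster's label required, *Gjb6* in Bergmann glia was -0.0060, *Slc4a4* there 0.0012 and *Kcnj16* in oligodendrocytes -0.052. *Slc4a4* in Bergmann glia was 0.034 by library size only and 0.048 by limma-trend, which gave *Slc4a4* in oligodendrocytes 0.0028. Without thinning, the share of velate astrocytes with a UMI was 0.16 points higher in SCA1 for *Kcnj10* and 3.12 points higher for *Aqp4*. With 1 mouse left out, the log2 difference in the level of *Kcnj10* between Bergmann glia and velate astrocytes ran from -0.052 to 0.118, and the ranges of genotype differences that crossed 0 were as follows. In Bergmann glia *Gjb6* ran from -0.19 to 0.20 and *Slc4a4* from -0.24 to 0.21. In velate astrocytes *Kcnj16* ran from -0.31 to 0.14, *Gja1* from -0.17 to 0.31, *Gjb6* from -0.12 to 0.018, *Atp1b2* from -0.00014 to 0.26 and *Slc4a4* from -0.14 to 0.21. In oligodendrocytes *Kcnj16* ran from -0.13 to 0.57 and *Atp1b2* from -0.085 to 0.50. The *Kcnj10* difference between Bergmann glia and velate astrocytes ran from -0.22 to 0.20, that between velate astrocytes and granule neurons from -1.31 to 0.19, and the *Kcnj16* difference between Bergmann glia and granule neurons from -1.16 to 0.32. In velate astrocytes, the difference in share ran from -4.04 to 0.13 points for *Kcnj10*, from -0.77 to 2.21 for *Kcnj16* and from -2.59 to 0.92 for *Aqp4*.

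Same-numbered mice of the 2 genotypes correlated in their deviations at 0.76, 0.041 and 0.62 in Bergmann glia, at 0.72, 0.14 and 0.62 in velate astrocytes and at 0.75, 0.088 and 0.61 in oligodendrocytes. Each of the 3 pairs was over 0.1 in velate astrocytes only, so the numbers were not taken as pairs. With the replicate block in place of batch, *Kcnj10* and *Kcnj16* in Bergmann glia were -0.57 and -0.53 (edgeR adjusted p = 0.683 and 0.892), *Kcnj10* in velate astrocytes was -0.52 (edgeR adjusted p = 1.00), and no member's call changed. Over all genes the block called 8 in Bergmann glia, 1 in velate astrocytes and 1 in oligodendrocytes, where the fit with batch called 0, 0 and 1. DESeq2 called 2, 0 and 1, the fit with no filter 15, 4 and 5, and limma-trend 371, 155 and 168. Leaving out SCA1 mouse 2 gave 8 in velate astrocytes and 2 in Bergmann glia.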
